A study of Mus musculus with 8 samples.

Results

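Interleukins and their receptors were followed in whole tumors of mice given a STING agonist or PBS, on a NanoString nCounter panel of 750 immune-related mouse genes. Members were chosen by name alone, as genes whose symbol starts with Il and a digit, plus Ebi3. Left out were Il1a, Il1b, Il1rn, Il18, Il33 and the IL-1 family receptors Il1r1, Il1r2, Il1rap and Il1rl1. This gave 52 of the 750 genes, 26 ligands and 26 receptors. The name rule keeps 4 receptors of the IL-1 family, Il18r1, Il18rap, Il1rl2 and Il1rapl2, so the label "outside the IL-1 family" did not hold for them, and they are described apart from the 22 other receptors.

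The tumors were peritoneal MC38 implants, grown from a murine colon cancer cell line in male wild-type C57BL/6 mice 7 to 8 weeks old, with treatment from day 7 after implantation. The 4 control mice received PBS, and the 4 treated mice received RR-CDA, a synthetic cyclic dinucleotide that activates STING, as 2 intraperitoneal injections of 15 µg, with tumors taken 10 days after the first. The labels call the tissue colon, and the epithelial markers Cdh1 and Epcam had mean counts of 24.1 and 10.1. Gene counts totalled 241724 to 403150 in the control tumors and 241506 to 414698 in the treated tumors, of which members made up 0.864% to 1.15%. PBS controls 2 and 4 carried near-identical counts (chi-square 0.499 per degree of freedom over 320 genes of moderate count, against 5.42 to 14.9 in the 11 other pairs of a group). Over 43 genes of at least 1000 counts the pair differed by more than counting error (8.32 per degree of freedom). The labels do not say whether they are separate tumors or 1 RNA measured again. They were averaged into 1 sample, which gives n = 3 controls and n = 4 treated tumors throughout. The tumors came from 2 experiments by the paper's legend, and which tumor belongs to which is not given.

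Interleukins are secreted proteins by which leukocytes and stromal cells instruct each other, and most of the ones here signal through receptor chains that are shared between several ligands. Most of these chains bind Janus kinases, which phosphorylate STAT transcription factors, and SOCS proteins turn the signal off. STING senses cyclic dinucleotides and drives type I interferon and inflammatory cytokines, and in tumors T cells and myeloid cells are main producers and targets of interleukins.

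Ligands were mostly too low to measure, and receptors mostly were not. The background, the mean plus 2 SD of the 8 negative probes averaged over the 7 samples, was 8.44 counts. Of the 26 ligands, 17 had a mean count at or under it, 3 (Il6, Il10 and Il11) lay near it at up to 2 times its value, and 6 were above. Of the 26 receptors, 8 were at or under the background, 3 (Il3ra, Il11ra1 and Il18r1) were near it and 15 were above. Together 27 members, 51.9%, had a mean count over the background, against 81.7% of the panel. Counts of different probes are not levels on a common scale, so a low count of one gene beside a high count of another says nothing of their ratio.

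No member reached an adjusted p under 0.05 (lowest adjusted p = 0.185 for Ebi3, edgeR's quasi-likelihood test with Benjamini-Hochberg adjustment over the 750 genes), and of all panel genes 0 did, which is 0%. At an unadjusted p under 0.05, 8 of the 52 members (15.4%) were higher in the treated tumors, beside 17.7% of the panel, and 0 members were lower, beside 1.33%. The 8 were Ebi3, Il27, Il7r, Il10ra, Il12rb1, Il12rb2, Il13ra2 and Il6st. All treated tumors lay above all controls in 8 members (15.4%), beside 16.8% of the panel, and below them in 1 (1.92%), beside 1.47%. The former were Ebi3, Il27, Il10ra, Il12rb1, Il12rb2, Il6st, Il18r1 and Il3ra. These shares are near those of the panel and are not a result about the members. By DESeq2's Wald test with the same scaling, 44 panel genes passed after adjustment, and Ebi3 was the 1 member among them (adjusted p = 0.0485). The count of 8 was 2 without STING agonist 1 (3.85%, panel 10.3%), 3 without PBS control 1 (5.77%, panel 12.4%), 4 without STING agonist 4 (7.69%, panel 10.5%) and 5 without STING agonist 3 (9.62%, panel 18.0%). It was 12 without PBS control 3 (23.1%, panel 20.4%), 9 without STING agonist 2 (17.3%, panel 18.1%) and 2 without controls 2 and 4 (3.85%, panel 12.0%). Without PBS control 3 the members wholly above the controls numbered 16 (30.8%, panel 31.3%), and without STING agonist 2 they numbered 14 (26.9%, panel 24.4%). Il27 and Il12rb2, both under the background, did not pass the unadjusted line with low counts raised to the background or by the Wald test.

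Split by role, 6 of 26 receptors (23.1%) and 2 of 26 ligands (7.69%) were higher at an unadjusted p under 0.05, beside 17.7% of the panel. Above the background these were 5 of 18 receptors (27.8%) and 1 of 9 ligands (11.1%), beside 21.4% of 613 panel genes, and the difference between roles was not tested. The median log2 fold change was 0.36 over the receptors and −0.18 over the ligands, beside 0.21 over the panel. A value above 0 was found in 21 of 26 receptors (80.8%) and 12 of 26 ligands (46.2%), beside 70.8% of the panel. Among genes above the background the medians were 0.48 for 18 receptors, 0.43 for 9 ligands and 0.25 for the 613 panel genes. Among genes at or under it they were 0.15 for 8 receptors, −0.32 for 17 ligands and −0.05 for 137 panel genes, and the negative probes themselves, scaled in the same way, had a log2 ratio of treated to control means of −0.17. The panel median depends on the scale, at −0.02 with TMM and −0.04 with the size factors of DESeq2, where the receptor median was 0.11 and 0.09 and the ligand median −0.39 and −0.41. The ligand median was above 0 without PBS control 3 (0.37) and without STING agonist 4 (0.03).

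**Figure D1:**
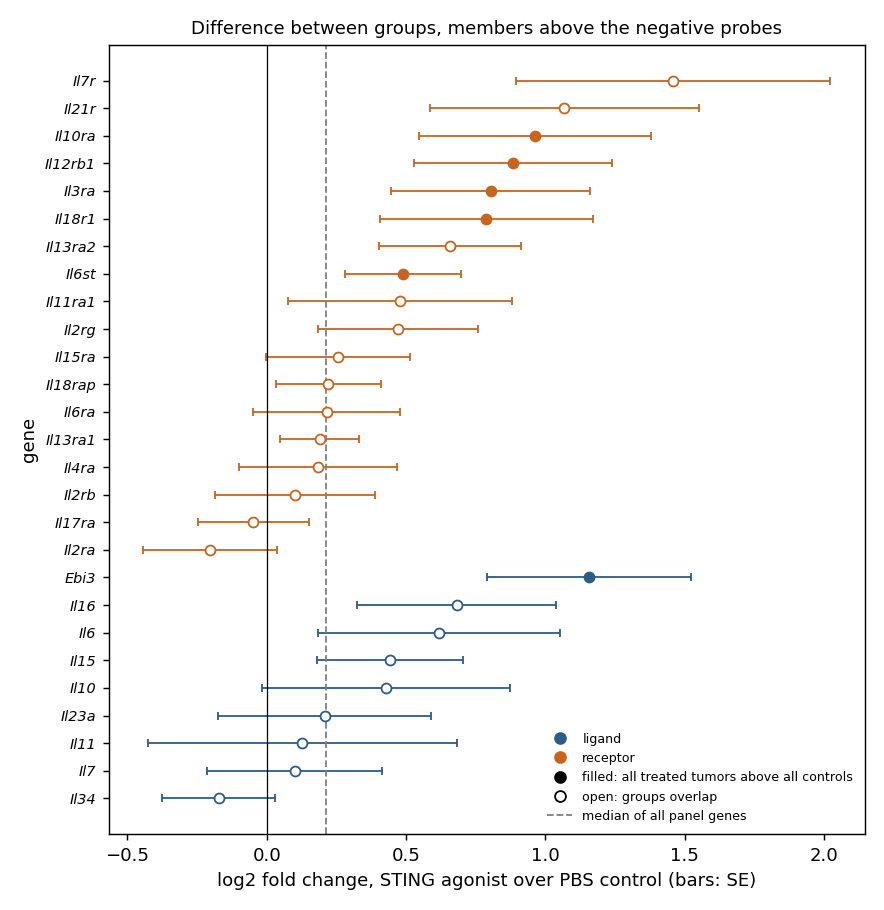
Log2 fold change of STING agonist over PBS control on the x axis for the 27 members above the background, with bars of 1 SE from edgeR (3 controls and 4 treated tumors). Filled points mark members whose treated tumors all lay above all controls, and the dashed line is the panel median of 0.21. Il7r, at 1.46, was highest and Il2ra, at −0.20, lowest.

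Among the ligands, Ebi3 had the lowest adjusted p. Ebi3 is the beta subunit that pairs with the p28 chain encoded by Il27 to form IL-27, a cytokine of activated antigen-presenting cells that acts on T cells. Its normalized counts were 21.3 in PBS control 1, 10.5 in controls 2 and 4, 20.2 in control 3, and 45.5, 26.9, 38.8 and 45.0 in STING agonist 1 to 4. Every treated tumor lay above every control, with STING agonist 2 closest to them. Ebi3 exceeded the sample's own background in 6 of the 7 samples, all but the averaged controls 2 and 4. The treated tumors averaged 39.1 ± 8.67 (SD, n = 4) and the controls 17.3 ± 5.93 (SD, n = 3), and the log2 fold change was 1.16 ± 0.37 (SE). Across 16 other ways of processing, Ebi3 was on the same side of the unadjusted line in 16, with log2 fold changes of 0.90 to 1.38 and adjusted p from 0.0485 to 0.408 (edgeR unless the test was changed). Its partner Il27 had a mean of 4.43 counts, under the background in all 7 samples, and so did not allow a reading of the heterodimer. The other subunits of the family, Il12a and Il12b of IL-12, were also at background, at 5.00 and 6.43 counts. Il23a, the p19 subunit of IL-23, was above it at 26.4 counts, with overlapping groups and means of 27.4 and 23.4 normalized counts in treated and control tumors.

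The gamma-chain cytokines support lymphocyte growth and survival. Il15, which sustains NK cells and memory CD8 T cells, had the highest count of them, with 80.5, 52.5 and 50.4 normalized counts in the controls, in the order given for Ebi3, and 78.2, 100.2, 69.5 and 84.7 in the treated tumors. PBS control 1 lay within the treated range, and the other controls lay below all treated tumors. The log2 fold change was 0.44 ± 0.26 (SE), with an adjusted p of 0.390 (edgeR's quasi-likelihood test with Benjamini-Hochberg adjustment). Il7, the stromal survival factor of T cells, gave 26.2 ± 6.53 and 24.4 ± 2.23 normalized counts in treated and control tumors (SD), a difference well inside the spread. The T cell cytokines Il2, Il4, Il9 and Il21 were at or under the background, at mean counts of 2.57, 5.00, 6.00 and 5.43.

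Ligands of the IL-6 and IL-10 families lay close to the background. Il6, an inflammatory cytokine, gave 8.33, 4.66 and 15.1 normalized counts in the controls and 18.7, 12.2, 17.4 and 11.5 in the treated tumors. STING agonist 1 and 3 exceeded all controls, the other treated tumors did not, and the log2 fold change was 0.62 ± 0.43 (SE). Over 15 alternatives this value was 0.29 to 1.16, highest without PBS control 3, and past the unadjusted line in 2. Il10, which restrains macrophages and dendritic cells, gave 3.70, 8.16 and 9.37 in the controls and 11.7, 4.89, 9.20 and 12.3 in the treated tumors, so the groups overlapped (log2 fold change 0.43 ± 0.44, SE). Il11, a gp130 cytokine made by stromal cells, averaged 8.98 normalized counts in treated and 8.10 in control tumors. Of the other IL-10 relatives, Il19, Il22 and Il24 had mean counts of 7.29, 4.57 and 2.57, all under the background.

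Type 2 and IL-17 cytokines had mean counts at or under the background. Il13, the product of type 2 T cells and innate lymphoid cells, had the highest count of its group, with 5.55, 1.17 and 10.8 normalized counts in the controls and 3.50, 4.89, 9.20 and 11.5 in the treated tumors. Both groups ranged from well under the background to just over it, and its mean of 7.29 counts lay under it. Il3 and Il5, growth factors of myeloid cells and eosinophils, had 3.29 and 3.71 counts. Il17f, which acts with Il17a on epithelium and fibroblasts, gave 4.63, 5.83 and 15.8 normalized counts in the controls and 2.34, 2.44, 11.2 and 6.18 in the treated tumors, with PBS control 3 and STING agonist 3 highest and a log2 fold change of −0.66 ± 0.63 (SE) that was 0.13 without PBS control 3. Il17a, Il17b and Il25 were at 3.57, 6.00 and 6.86 counts.

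A pair of ligands falls outside these families. Il34, an alternative ligand of the macrophage receptor Csf1r, had the highest count of all 26 ligands, with 214, 273 and 187 normalized counts in the controls and 221, 187, 158 and 228 in the treated tumors. The groups overlapped, the averaged controls 2 and 4 were highest and STING agonist 3 lowest, and the log2 fold change was −0.17 ± 0.20 (SE). It was below 0 under each of the 16 alternatives, from −0.47 to −0.01. Il16, a chemoattractant of CD4+ cells, had means of 22.9 ± 6.53 and 14.2 ± 2.50 normalized counts in treated and control tumors (SD), with STING agonist 1, 3 and 4 above all controls and STING agonist 2 among them.

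**Figure D2:**
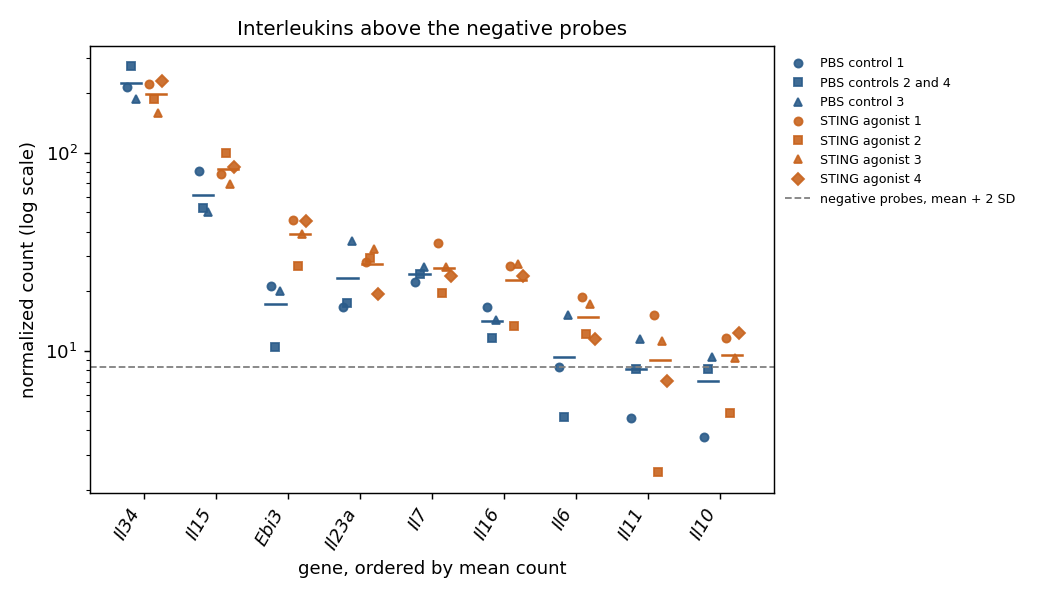
Normalized counts on a log scale for the 9 ligands above the background, with 1 point per sample and a short line at each group mean (3 controls, 4 treated tumors). The dashed line is the mean plus 2 SD of the negative probes, 8.36 after scaling. Ebi3 is the one ligand whose treated tumors all lie above its controls, and Il6, Il11 and Il10 straddle the line.

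Among the gamma-chain receptors, Il7r had the largest fold change of all members, and the largest standard error of those above the background. It encodes the IL-7 receptor alpha chain of naive and memory T cells. The normalized counts were 8.33, 14.0 and 25.9 in the controls and 77.1, 24.4, 23.5 and 54.7 in STING agonist 1 to 4. STING agonist 1 and 4 stood far above the controls, while STING agonist 2 and 3 lay below PBS control 3, so the groups overlapped. Il7r exceeded the sample's own background in 6 of the 7 samples, all but PBS control 1. The log2 fold change was 1.46 ± 0.56 (SE), with an adjusted p of 0.223 (edgeR's quasi-likelihood test with Benjamini-Hochberg adjustment), and it was 1.07 to 2.01 over 16 alternatives, past the unadjusted line in 11 of them. The T cell markers other than Cd4, which was at background, were also highest in STING agonist 1 and 4. Their part in the Il7r values was not tested. Fewer cells of a type and less RNA per cell cannot be told apart in such bulk samples.

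STAT factors carry the signals of the gamma-chain, IL-6 and IL-12 receptors, and not of every receptor family here. The promoters of the members were searched for the STAT site TTCNNNGAA as a description, with no test. Of the 8 members above the background that were higher by unadjusted p or by non-overlap, 6 had a promoter listed, and the 2 promoters with a match, those of Il7r and Il18r1, are shown. That of Il7r lies at chr15:9529827-9530126 (GRCm38.p6, minus strand, RefSeq), written 5′ to 3′ with the match in capitals.
Il7r: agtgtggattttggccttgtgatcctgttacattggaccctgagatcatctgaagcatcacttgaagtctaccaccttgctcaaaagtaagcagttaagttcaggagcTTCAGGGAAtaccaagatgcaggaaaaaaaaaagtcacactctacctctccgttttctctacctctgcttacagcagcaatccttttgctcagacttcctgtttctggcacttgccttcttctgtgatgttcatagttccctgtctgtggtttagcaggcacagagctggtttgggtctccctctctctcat

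Matches were counted on both strands in the 300 bases around each start that RefSeq lists, for 38 of the 52 members. The entries missing were Il7, Il10, Il10ra, Il12rb1, Il15, Il17b, Il17ra, Il22ra2, Il23a, Il24, Il25, Il27, Il2rb and Il34. TTCNNNGAA was present in 5 members, Il4, Il7r, Il12rb2, Il18r1 and Il19 (13.2%, against 9.55% of 27025 genes). The core of the interferon-stimulated response element, TTTC, any 2 bases and TTTC again, was present in 2, Il4 and Il19 (5.26%, against 3.99%), neither of which was above the background. Both motifs hold the letters TTC, so matches to them can overlap, and a match is only a run of letters, not a bound site.

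The other gamma-chain receptors included the chains of the IL-2, IL-15, IL-4 and IL-21 receptors. Il2rb, the chain that IL-2 and IL-15 share, had the highest count of this group, with 203, 157 and 223 normalized counts in the controls and 243, 115, 203 and 273 in the treated tumors. Treated tumors were both the lowest (STING agonist 2) and the highest (STING agonist 4) of all samples, and the log2 fold change of 0.10 ± 0.29 (SE) was −0.16 with TMM and −0.17 with the size factors of DESeq2. Il21r, the IL-21 receptor of B, T and NK cells, averaged 35.0 ± 12.4 in treated and 16.4 ± 8.81 in control tumors (SD), with STING agonist 1, 3 and 4 above all controls and STING agonist 2 among them. In the averaged controls 2 and 4, Il21r lay under the sample's own background. Il2rg, the common gamma chain, and Il15ra, which presents IL-15, each had 3 treated tumors above all controls and 1 below them all (fold 1.39 and 1.19). For Il4ra, the IL-4 and IL-13 receptor chain, and Il2ra, the high-affinity IL-2 receptor chain, the folds were 1.14 and 0.869, with no treated tumor above all controls.

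Receptors of the IL-12 family were split by level. Il12rb1, the chain shared by the IL-12 and IL-23 receptors on T and NK cells, gave 62.9, 31.5 and 67.7 normalized counts in the controls and 98.1, 84.3, 70.5 and 148 in the treated tumors. All treated tumors lay above all controls, STING agonist 3 by a narrow margin over PBS control 3, and STING agonist 4 was highest. The means were 100.3 ± 33.9 and 54.0 ± 19.7 (SD), a log2 fold change of 0.88 ± 0.36 (SE) with an adjusted p of 0.231 (edgeR's quasi-likelihood test with Benjamini-Hochberg adjustment). It was past the unadjusted line in 9 of 16 alternatives, as Il13ra2 was, and Il10ra and Il6st were in 8. Its partners were under the background, with mean counts of 5.43 for Il12rb2, which completes the IL-12 receptor, and 4.71 for Il23r, which completes the IL-23 receptor.

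In the IL-6 family, Il6st encodes gp130, the signal-transducing chain shared by IL-6, IL-11, LIF and oncostatin M. It had 101, 75.8 and 118 normalized counts in the controls and 140.2, 128, 129.8 and 154 in the treated tumors. The groups did not overlap, and the treated tumors were close together at 138 ± 12.0 (SD, n = 4), against 98.2 ± 21.3 in the controls (SD, n = 3). The log2 fold change was 0.49 ± 0.21 (SE), and 0.24 to 0.64 over the alternatives, with an adjusted p of 0.247 (edgeR's quasi-likelihood test with Benjamini-Hochberg adjustment). Il6ra, the IL-6 binding chain of hepatocytes and leukocytes, had a fold of 1.16, with STING agonist 2 lowest of all samples at 70.9 normalized counts. Il11ra1, the IL-11 binding chain, lay near the background at 12.0 and 8.49 normalized counts in treated and control tumors.

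The IL-10 family was carried by Il10ra, the ligand-binding chain of the IL-10 receptor on leukocytes. Its normalized counts were 43.5, 15.2 and 41.8 in the controls and 74.8, 47.7, 51.1 and 90.0 in the treated tumors. The groups did not overlap, controls 2 and 4 were far below the other controls, and STING agonist 2 exceeded PBS control 1 only slightly. The log2 fold change was 0.96 ± 0.42 (SE) with an adjusted p of 0.250 (edgeR's quasi-likelihood test with Benjamini-Hochberg adjustment). Il22ra1, an epithelial receptor chain of IL-22, and Il22ra2, a soluble decoy for it, had mean counts of 7.29 and 3.14, under the background. Il22ra2 was the 1 member with every treated tumor below every control.

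Type 2 and beta-chain receptors included the member with the highest count. Il13ra1, the IL-13 receptor chain that signals with Il4ra, gave 1193, 1159 and 1183 normalized counts in the controls and 1432, 1369, 1106 and 1472 in the treated tumors. The controls were within a narrow band, STING agonist 3 lay below it and the other treated tumors above, and the log2 fold change of 0.19 ± 0.14 (SE) was −0.06 with TMM and −0.08 with the size factors of DESeq2. Il13ra2, a high-affinity receptor that takes up IL-13 and is often described as a decoy, gave 52.7, 59.4 and 72.8 in the controls and 116, 69.7, 92.0 and 112 in the treated tumors. STING agonist 2 lay within the control range and the others lay above it, with a log2 fold change of 0.66 ± 0.26 (SE) and an adjusted p of 0.223 (edgeR's quasi-likelihood test with Benjamini-Hochberg adjustment).

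Il3ra, the IL-3 receptor alpha chain of basophils and plasmacytoid dendritic cells, was near the background, with 10.2, 9.32 and 15.1 normalized counts in the controls and 25.7, 15.9, 16.4 and 23.8 in the treated tumors. The groups did not overlap, with PBS control 3 and STING agonist 2 nearly touching, and the log2 fold change was 0.80 ± 0.36 (SE). Il5ra, the eosinophil IL-5 receptor chain, was under the background at 5.86 counts. In the IL-17 family, Il17ra, the chain that its receptors share, gave 217, 168 and 259 in the controls and 209, 189.5, 185 and 248 in the treated tumors. These ranges overlapped fully, and the log2 fold change was −0.05 ± 0.20 (SE). Il17rb, the IL-25 receptor chain, had a mean of 5.43 counts, under the background.

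The 4 IL-1 family receptors that the name rule kept are the IL-18 receptor chains Il18r1 and Il18rap, the IL-36 receptor Il1rl2 and the neuronal Il1rapl2. Il18r1, the IL-18 binding chain, was near the background, with 7.40, 8.16 and 17.3 normalized counts in the controls and 22.2, 18.3, 19.4 and 17.6 in the treated tumors. The treated tumors all lay above the controls and close together, PBS control 3 just under them, and the log2 fold change was 0.79 ± 0.38 (SE). Over 15 alternatives this value was 0.57 to 1.31, highest without PBS control 3, and past the unadjusted line in 5. Il18rap, its signalling partner, gave 116, 119 and 95.1 in the controls and 139, 110.0, 123 and 139 in the treated tumors. STING agonist 2 was within the control range and the others above it, and the log2 fold change of 0.22 ± 0.19 (SE) was −0.05 with TMM and −0.06 with the size factors of DESeq2. Il1rl2 and Il1rapl2 were under the background, at 7.57 and 4.29 counts.

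The Il18r1 promoter is the other one with STAT matches, 2 of them, at 1 of its 3 listed starts. It lies at chr1:40465756-40466055 (GRCm38.p6, plus strand, RefSeq), with the matches in capitals.
Il18r1: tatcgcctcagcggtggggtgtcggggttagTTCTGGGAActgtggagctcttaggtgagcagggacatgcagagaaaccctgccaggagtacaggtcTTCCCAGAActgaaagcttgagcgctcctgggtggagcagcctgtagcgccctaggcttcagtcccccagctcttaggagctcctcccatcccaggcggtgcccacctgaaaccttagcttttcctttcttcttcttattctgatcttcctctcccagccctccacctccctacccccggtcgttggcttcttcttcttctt

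**Figure D3:**
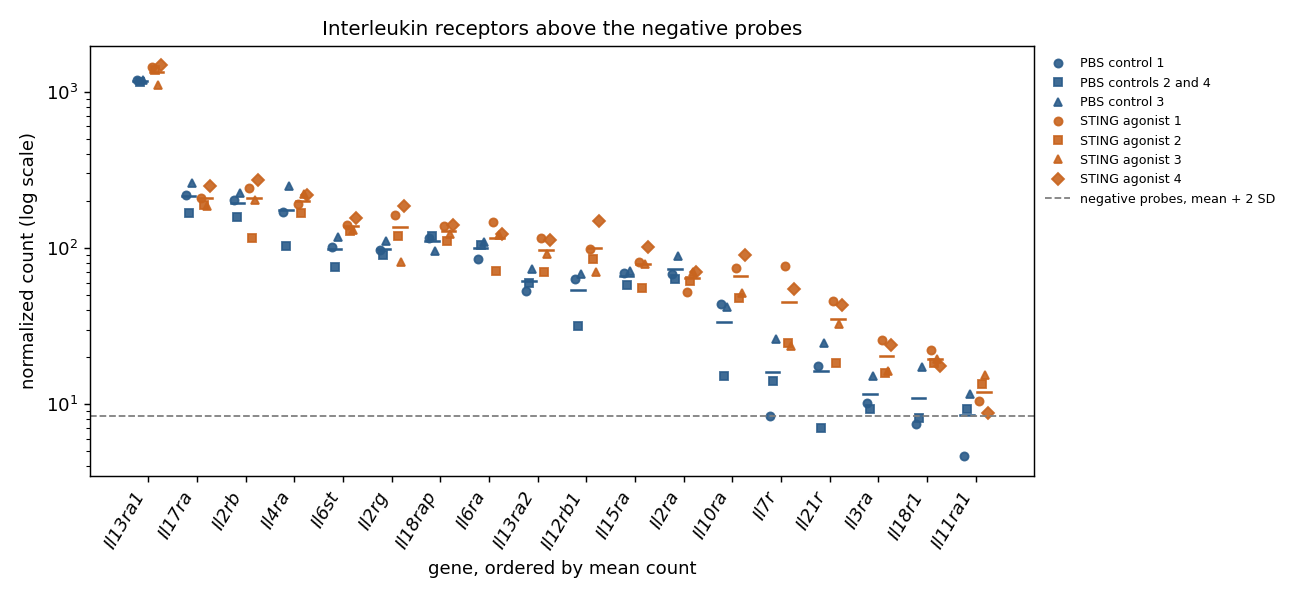
Normalized counts on a log scale for the 18 receptors above the background, with 1 point per sample and a short line at each group mean (3 controls, 4 treated tumors). The dashed line is the mean plus 2 SD of the negative probes, 8.36 after scaling. STING agonist 4 is highest in 8 receptors and STING agonist 1 in 6, and the averaged controls 2 and 4 are lowest in 7.

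Across the 27 members above the background, the same few samples held the ends of the range. STING agonist 1 was highest in 10 members (37.0%) and STING agonist 4 in 9 (33.3%), and the averaged controls 2 and 4 were lowest in 10 (37.0%). The panel genes above the background showed much the same, with shares of 31.5%, 28.9% and 44.9%.

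The signalling partners of these receptors were read from 26 listed genes, 15 of them with a probe. At an unadjusted p under 0.05, 4 of the 15 were higher in treated tumors (panel 17.7%) and 0 lower (panel 1.33%), and 0 passed after adjustment. They included Stat2 (log2 fold change 0.52 ± 0.18, SE), which carries interferon signals, Socs1 (0.55 ± 0.20), which dampens cytokine signals, and the gp130 ligand Lif (1.20 ± 0.36). The count was 2 of 15 without STING agonist 1 (panel 10.3%). Lif was at 43.5, 39.6 and 74.2 normalized counts in the controls and 162, 149, 69.5 and 106 in the treated tumors, with STING agonist 3 within the control range and the others above it. Stat3, Stat5b and Stat6, which carry the signals of the IL-6, gamma-chain and IL-4 receptors, had log2 fold changes of −0.08, 0.06 and 0.08. Among the kinases the values were −0.10 for Jak1, 0.36 for Jak2, 0.15 for Jak3 and 0.05 for Tyk2. Stat4, used by the IL-12 receptor, was near the background at 9.43 counts, and Csf2rb, the beta chain that IL-3 and IL-5 receptors share, had a fold of 1.52 with overlapping groups. Osm and Socs3 had log2 fold changes of 0.07 and 0.17.

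Markers of leukocytes differed in how many were higher in the treated tumors, and 0 passed after adjustment. Ptprc, which encodes the pan-leukocyte protein CD45, was at 108, 42.0 and 111 normalized counts in the controls and 257, 166, 140.0 and 267 in the treated tumors. Of 6 T cell markers, 4 were higher at an unadjusted p under 0.05 (panel 17.7%), and their summed level was 160.1, 106 and 174 in the controls and 394, 203, 190.1 and 356 in the treated tumors, with Cd3d highest in count and Cd4 at background. Of the others, 1 of 4 NK cell markers (sum 270.1, 159.7 and 241 in the controls, 440.3, 238, 271 and 457 in the treated, Klrd1 highest in count) and 1 of 5 macrophage markers (sum 1420, 789 and 1641, then 2460, 1544, 1652 and 2295, Cd68 highest in count) were higher. Of 5 dendritic cell markers, 2 were higher (sum 55.5, 65.3 and 62.7, then 159, 74.6, 85.8 and 116, Cd83 highest in count, Xcr1 at background). Their part in the receptor values was not tested.

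The B cell, neutrophil and epithelial lists, with 5, 4 and 2 markers, had 0 genes past the unadjusted line. Of the B cell markers, Cd79b was highest in count, and Ms4a1, Cd79a and Pax5 were at background. Neutrophil markers summed to 322, 601 and 366 in the controls, then 668, 307, 548 and 413 in the treated tumors, with S100a8 highest in count. The epithelial markers summed to 36.1, 37.3 and 48.3, then 28.0, 15.9, 34.7 and 27.4, with Cdh1 highest in count. Of 6 hepatocyte genes the panel held Ambp alone, at 762 normalized counts in STING agonist 4 and 2.44 to 11.7 in the other samples, and its part in the values of STING agonist 4 was not tested.

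Set against Ptprc, nearly all members were lower in treated tumors. The log2 ratio of a member to Ptprc was compared by a two-sided exact permutation test over 35 arrangements, where the smallest p possible is 0.0286. The ratio was lower in 26 of 27 members above the background (96.3%, against 93.5% of the 612 panel genes above it other than Ptprc), with a median difference of −0.88 (panel −1.05). At an exact p under 0.05, 5 members were lower (18.5%), beside 28.6% of the panel, and 0 higher, beside 0.490%, so these shares do not set the members apart. The 5 became 1 with the mean of the 6 T cell markers, Cd4 at background among them, in place of Ptprc (3.70%, against 0.824% of 607 panel genes). They became 10 with all 8 tumors separate (37.0%, panel 45.8%). In the main setting they were Il13ra1, Il17ra, Il2rb, Il2rg and Il34, each with every treated tumor below every control and a difference of −1.15, −1.36, −1.28, −0.92 and −1.50 (exact permutation p = 0.0286 each, 0.0982 after adjustment over the panel genes above the background).

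The difference in log2 ratio, treated minus control, subtracts the difference of Ptprc from that of each member, so it was nearest 0 for members with a fold close to that of Ptprc. It was 0.12 for Il7r, −0.12 for Ebi3, −0.14 for Il21r, −0.25 for Il10ra, −0.40 for Il18r1 and −0.42 for Il12rb1. Il10ra had log2 ratios to Ptprc of −1.32, −1.47 and −1.41 in the controls and −1.78, −1.80, −1.45 and −1.57 in the treated tumors. The distance between Il10ra and Ptprc was thus much alike in every sample, slightly larger in 3 treated tumors than in any control. Il34 by contrast had ratios of 0.98, 2.70 and 0.75 in the controls and −0.22, 0.17, 0.18 and −0.23 in the treated tumors. The Il34 counts themselves overlapped, and Ptprc did not, so a gene with little difference between the groups is set apart by the division alone.

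**Figure D4:**
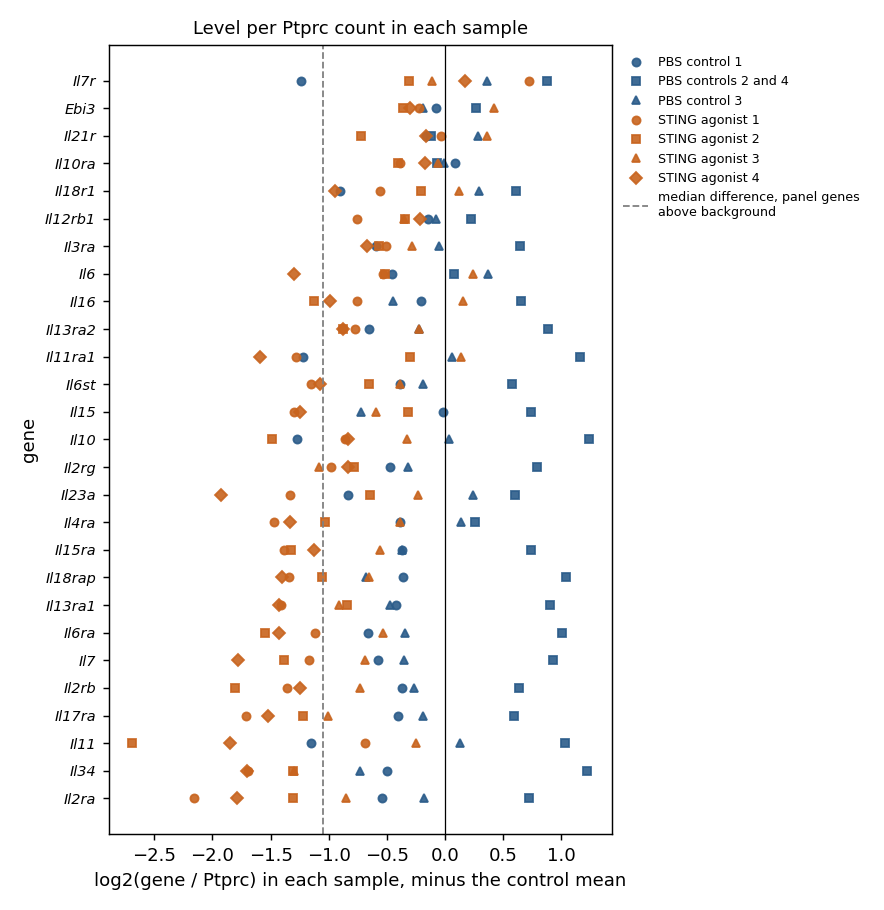
Log2 ratio of each of the 27 members above the background to Ptprc, per sample, minus the mean of the 3 controls on the x axis. Points left of 0 are lower relative to Ptprc than the control mean, and the dashed line is the median difference of panel genes, −1.05. For Il7r and Ebi3, at the top, the mean difference between the groups is near 0 (0.12 and −0.12) while the samples of Il7r spread widely, and the averaged controls 2 and 4 lie right of 0 in most members.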

How the data were processed

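RNA was extracted with TRIzol from 8 whole tumors and measured on the nCounter PanCancer Immune Profiling mouse panel. The authors deposited the raw count of each of 784 probes (750 genes of immune function, 20 for housekeeping, 8 negative and 6 positive control probes), as whole numbers with a lowest count of 1 in every sample. Their normalization to housekeeping genes with nSolver and R came after this step, with no version or settings stated.

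Groups follow the labels, and dose and days follow the paper. PBS controls 2 and 4 were averaged, rounding upward from midpoints. A normalized count is the count divided by the geometric mean of the housekeeping genes, relative to the geometric mean of this value over the 7 samples. A fold is the ratio of group means. Log2 fold changes, SE and p come from edgeR 4.0.16 (R 4.3.3), the quasi-likelihood test on all 750 genes without a filter or covariate, with Benjamini-Hochberg adjustment over all of them. The test was checked on simulated data. Low counts near the background of 5.03 to 11.3 per sample carry a large counting error. The multiple of 2 that defines near background, and the count of highest and lowest samples, were chosen after values were seen.

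Members described in every sample were those above the background with an unadjusted p under 0.05 or groups that do not overlap, and in each family the ligand and the receptor with the highest count. Others are given by mean count, fold or level. Values of some listed genes that are not members are not reported here. The members and lists were chosen with earlier results of these data known. Ratios to Ptprc were adjusted over the panel genes above the background, in place of the planned adjustment over the members.

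Alternatives were TMM, size factors of DESeq2 1.42.0, its Wald test, limma 3.58.1 and the methods' t-test on log2(normalized count + 1). Others were a filter at a mean of 20 counts, low counts raised to the background, all 8 tumors separate and replicate number as a block. Controls 2 and 4 were left out together, and each of the other tumors was left out in turn. For the ratio, the T cell markers also took the place of Ptprc. Python 3.11.15 drew the figures and searched the promoters. Cell sorting, histology and flow cytometry data were not analysed here.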

Additional observations from a re-analysis of the deposited data

How the results depend on the processing

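Of 282 values of the members described in every sample, recomputed under up to 16 alternatives each, 216 kept their direction and their side of the unadjusted line, 35 no longer passed it, 15 came to pass it and 16 changed sign. The receptor median stayed above 0 in all alternatives. Except where stated, the cause was not tested.

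Panel genes with an adjusted p under 0.05 numbered 44 by the Wald test of DESeq2 and 0 to 7 with 1 tumor left out. Members higher at an unadjusted p under 0.05 (8) numbered 3 with TMM (5.77%, panel 11.6%), 3 with size factors (5.77%, panel 10.8%), 5 with the filter (25.0% of 20 members, panel 22.9%), 12 with limma (23.1%, panel 17.5%), 13 with all 8 tumors separate (25.0%, panel 24.8%), 2 with controls 2 and 4 left out (3.85%, panel 12.0%), and 2 to 12 with 1 tumor left out (3.85% to 23.1%, panel 10.3% to 20.4%). Members lower (0) numbered 1 (1.92%) with size factors (panel 6.00%), limma (panel 1.73%), the methods' t-test (panel 1.07%) and raised low counts (panel 2.0%), and 0 to 1 with 1 tumor left out (panel 0.933% to 2.80%). Members wholly above the controls (8) numbered 5 with TMM (9.62%, panel 9.33%), 5 with size factors (9.62%, panel 9.07%), 4 with the filter (20%, panel 21.8%) and 8 to 16 with 1 tumor left out (15.4% to 30.8%, panel 17.9% to 31.3%). The ligand median (−0.18) was 0.21 with the filter (5 ligands), 0.018 with all tumors separate, 0.093 with the replicate block, and −0.19 to 0.37 with 1 tumor left out. Partners past the line (4) numbered 2 to 5 with 1 tumor left out. The median ratio to Ptprc (−0.88) was −0.45 with T cell markers as denominator, −0.52 with controls 2 and 4 left out and −1.25 to −0.74 with 1 tumor left out. Members lower at an exact p under 0.05 (5) numbered 1 with T cell markers as denominator (3.70%, panel 0.824%) and 10 with all 8 tumors separate (37.0%, panel 45.8%). Scaling does not alter these ratios, and exact counts of ratios were not run where the design allows no p under 0.05.

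Sign changes: Il18rap was −0.052 with TMM and −0.064 with size factors, Il13ra1 −0.063 and −0.076, and Il2rb −0.16 and −0.17. Il2rb was also −0.029 without controls 2 and 4, and −0.057 (without STING agonist 4) to 0.30 (without STING agonist 2) with 1 tumor left out. Il13 was −0.20 with raised low counts, −0.15 without controls 2 and 4, and −0.071 (without STING agonist 4) to 1.05 (without PBS control 3) with 1 tumor left out. Il17f was −1.23 (without STING agonist 3) to 0.13 (without PBS control 3). Il17ra was 0.033 with all tumors separate, 0.047 with the replicate block, and −0.14 (without STING agonist 4) to 0.11 (without PBS control 3) with 1 tumor left out, at 0.0047 without STING agonist 3. With the replicate block, 12 members were higher (23.1%, panel 21.2%) and 8 lay wholly above the controls (15.4%, panel 16.0%). The labels do not say that replicate numbers pair animals, and same-number tumors correlated at −0.06 to −0.28.

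Low counts, with their large counting error, limit the reading of the 25 members at or under the background. Among them Il27 and Il12rb2 were higher at an unadjusted p under 0.05 (8.0%, against 1.46% of 137 panel genes at this level, which are the same 2 genes), and neither passed with low counts raised to the background or by the Wald test of DESeq2. For the others a difference that did not pass is not shown to be absent.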

Other observations

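Among the 25 members at or under the background, the highest values of 6 (Il4, Il9, Il12b, Il17f, Il19 and Il25) lay in PBS control 3 and STING agonist 3, a pattern noticed after the values were seen. This is 24.0% of these members, beside 21.2% of the 137 panel genes at or under the background. With controls 2 and 4 averaged, the negative-probe background in counts was also highest in PBS control 3 and STING agonist 3, at 11.3 and 10.8. It was 10.4 in PBS control 1, 9.68 in the averaged controls and 5.03 to 6.31 in the other treated tumors. Before averaging, PBS control 2 had the highest background of all, at 11.32, and PBS control 4 had 8.27. The normalized means of the negative probes were 3.33 and 3.96 in PBS control 3 and STING agonist 3. They were 3.58 and 4.95 in the other controls, and 4.38, 2.75 and 2.98 in the other treated tumors. The part of the background in this pattern was not tested.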
